A study of Mus musculus with 8 samples.

Results

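The forkhead factors of lung mesenchyme examined here were Foxf1, Foxf2, Foxp1, Foxp2, Foxp4 and Foxd1. Every probe set whose platform symbol is one of these 6 genes was taken, which gave 22 of the 45101 probe sets on the array. Of these, 21 passed the filter on low values, and the one that did not was the Foxf2 probe set 1447562_at, with signals of 6.22 to 174.

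Forkhead factors are transcription factors that bind DNA through a shared winged-helix domain. Foxf1 and Foxf2 are switched on in embryonic lung mesenchyme by hedgehog signals from the airway epithelium, and Foxf1 is needed for branching and for the lung's blood vessels. Foxp1, Foxp2 and Foxp4 act mainly as repressors that bind DNA as dimers with one another and are best known in lung epithelium, with Foxp1 also found in mesenchyme and endothelium, while Foxd1 marks stromal progenitors in kidney and precursors of pericytes.

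The arrays carried RNA from mesenchyme, the connective tissue around the airway, microdissected from lungs of CD1 mouse embryos at stages e11.5 and e12.5. The 4 groups had 2 arrays each. Tissue from around the tips of the growing branches (tip) or from around the stalks behind them (stalk) was lysed straight after dissection. Other stalk pieces spent 12 h on culture plastic in control growth medium or in the same medium with 400 ng/ml Wnt1, a secreted signalling protein. The labels name no genetic alteration in any group. Nor do they tell if the 2 arrays of a group had different litters as their source, and a p-value here therefore speaks of array-to-array spread, possibly technical, and no more. All groups are pieces of whole tissue, in which fewer cells of a type and less RNA per cell cannot be told apart.

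The arrays of cultured tissue stood apart. Their median signal was 149 to 299 arbitrary units, against 76.5 to 99.8 on the uncultured arrays, although the 2% trimmed mean was 500 on all 8. Signal ratios of 3' to 5' probe sets for Actb, which grow as RNA is shorter or less fully copied, were 6.81 to 24.4 in culture and 2.02 to 4.52 without it. Across probe sets, replicates correlated at 0.967 in tip and in stalk, 0.797 in control culture and 0.808 in Wnt1 culture. All 8 lung mesenchyme markers (Tbx4, Tbx5, Tcf21, Wnt2, Col1a1, Col3a1, Pdgfra and Vim) lay above the array median in every group. A signal was treated as bright where a probe set's mean over the 8 arrays exceeded the highest array median, 299, and 11 of the 21 tested probe sets were. They covered Foxf1, Foxf2 and Foxd1 with 1 each, Foxp1 with 5 and Foxp2 with 3. None of the 3 Foxp4 probe sets reached it.

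**Figure D1:**
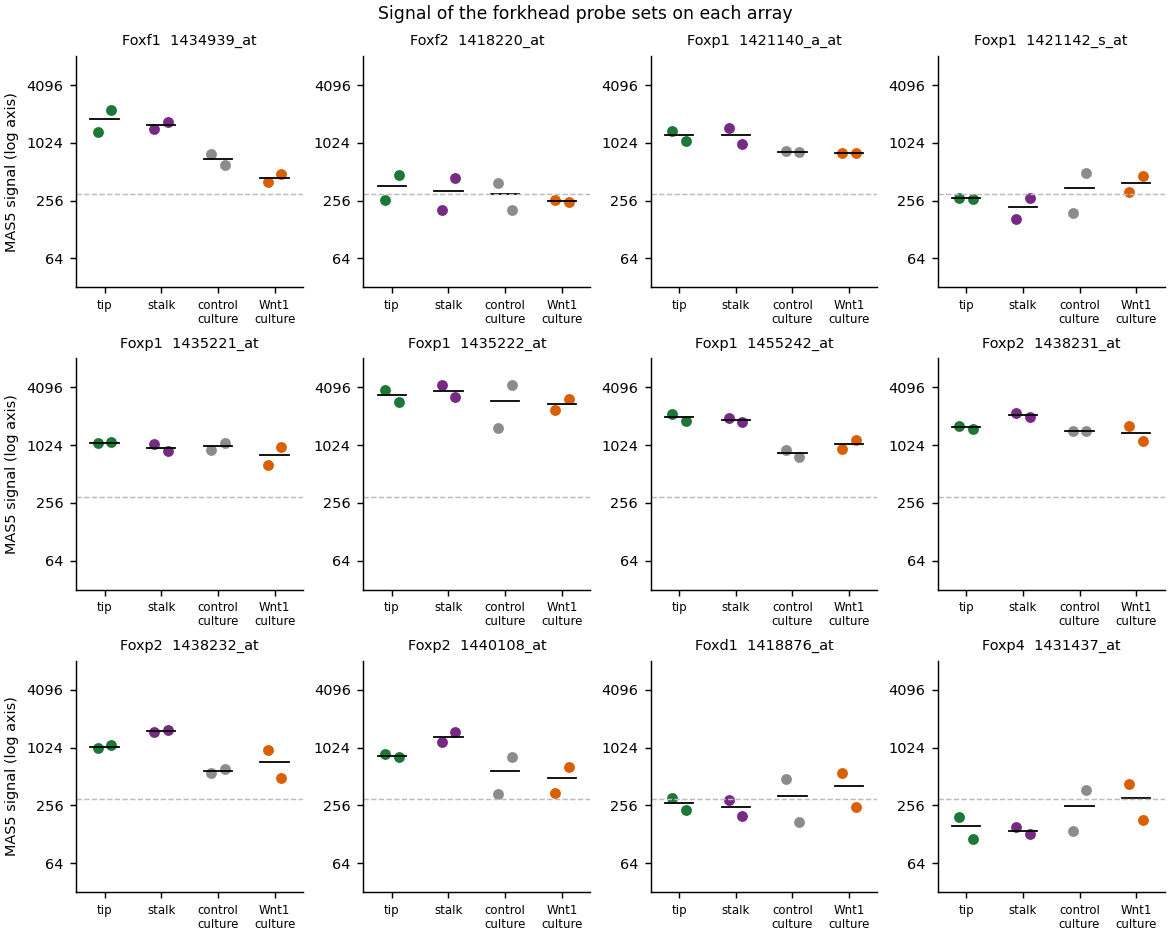
Signal of the 11 bright probe sets and of Foxp4 1431437_at on each of the 8 arrays, in arbitrary units on a log axis, with the group on the x axis, dots for arrays, black lines for group means (n = 2) and a dashed line at the highest array median, 299. Foxf1 1434939_at descends from 1342 to 2248 in tip to 400 and 482 in Wnt1 culture with no overlap between uncultured and cultured arrays.

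Foxf1 was lower in culture than in uncultured stalk in both media at its bright probe set, and no other member passed the test in both. Probe set 1434939_at read 1342 and 2248 in tip, 1441 and 1678 in stalk, 784 and 603 in control culture, and 400 and 482 in Wnt1 culture. Both arrays of each cultured group lay below all 4 uncultured arrays, and both Wnt1 arrays lay below both control culture arrays. The group means were 1795 ± 641 in tip, 1559 ± 168 in stalk, 693 ± 128 in control culture and 441 ± 57.8 in Wnt1 culture (SD, n = 2 each).

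Against stalk, Foxf1 1434939_at fell by 1.13 ± 0.37 (SE) in control culture, with an adjusted p of 0.0461, and by 1.72 ± 0.37 in Wnt1 culture, with an adjusted p of 0.018. These and the differences that follow are on the log2(signal + 44.5) scale from limma's moderated test, and p-values were adjusted by Benjamini-Hochberg over 29333 probe sets with a threshold of 0.05. The control culture and Wnt1 culture comparisons share the 2 stalk arrays, so they are not independent. All probe sets together shifted by a median of 0.49 in control culture and 0.36 in Wnt1 culture, and relative to that median Foxf1 was at -1.62 and -2.09. Bright probe sets, of which Foxf1 1434939_at is one, had medians of -0.24 in both comparisons, and relative to those it was at -0.88 and -1.49. The control culture call was also lost without the filter on low values (adjusted p = 0.051) and with array quality weights (0.0535), and it was kept in 11 of 23 alternatives. It was lost when any one of the tip, stalk or control culture arrays was left out, with adjusted p-values of 0.0767 (tip replicate 1), 0.0795 (tip replicate 2), 0.166 (stalk replicate 1), 0.272 (stalk replicate 2), 0.0908 (control culture replicate 1) and 0.0952 (control culture replicate 2). The Wnt1 culture call was lost without stalk replicate 1 (0.119), stalk replicate 2 (0.19) or Wnt1 culture replicate 1 (0.0654).

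The second Foxf1 probe set did not follow the first. Foxf1 1423013_at, which is dim, read 178 and 186 in tip, 174 and 117 in stalk, 451 and 245 in control culture, and 107 and 146 in Wnt1 culture. Its difference from stalk was 1.01 ± 0.52 in control culture (adjusted p = 0.165, limma) and -0.14 ± 0.52 in Wnt1 culture. The 2 probe sets had a Pearson r of -0.005 over the 8 arrays, and their averaged difference in control culture was -0.06 in log2. Every statement on a lower Foxf1 level therefore rests on 1434939_at alone.

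Endothelial cells also express Foxf1, and their markers, like Foxf1 1434939_at, were lower in culture than in stalk. The summed signal of 14 endothelial markers was 14083 to 16818 in stalk, 3949 to 4155 in control culture and 2031 to 3693 in Wnt1 culture. Of the 13 tested, 9 fell in each culture comparison. In tip the sum was also below stalk, at 8735 to 12202. There Foxf1 1434939_at read 1342 and 2248, which overlapped with its 1441 and 1678 in stalk. In culture, 7 of the 14 were not above the array median. Of the 8 lung mesenchyme markers, 5 fell in control culture and 4 in Wnt1 culture, where 1 rose, while their summed signal was 52066 to 56423 in stalk and 59125 to 81900 in culture. Vim carried much of that sum, at 16225 and 14961 in stalk and 36024 to 64563 in culture, so the sum does not measure lung mesenchyme content. Smooth muscle markers summed to 5000 to 6284 in stalk and 110660 to 179160 in culture, with 5 of 7 higher in each culture comparison. Acta2 carried most of that sum, at 3321 and 4457 in stalk and 89032 to 122880 in culture. Beside these marker counts, 15.0% of all genes rose and 8.39% fell in control culture, and 6.9% rose and 5.8% fell in Wnt1 culture. Epithelial markers summed to 1746 to 2088 in stalk and 5920 to 12981 in culture. In stalk 7 of the 13 were not above the array median, which was itself higher in culture, so the epithelial sum does not measure epithelial content. The highest sum was on Wnt1 culture replicate 2, where Krt8 read 4384 and Krt18 6905. The part of these cell types, and of the 3' to 5' ratios, in the Foxf1 result was not tested.

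Foxf2, the close relative of Foxf1, gave values that overlapped between all 4 groups. Probe set 1418220_at read 261 and 470 in tip, 207 and 445 in stalk, 392 and 206 in control culture, and 263 and 251 in Wnt1 culture. In 3 of the groups the 2 arrays differed more from each other than the group means did. Its difference from stalk was -0.08 ± 0.51 in control culture and -0.22 ± 0.51 in Wnt1 culture, and neither passed the threshold.

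The genomic neighbours of these genes were followed as a list of 7 genes that lie beside a forkhead member or in its cluster, of which 6 were tested. Of all genes, 15.0% rose and 8.39% fell in control culture, and 6.9% rose and 5.8% fell in Wnt1 culture. Among the 6 neighbours, 1 rose and 1 fell in control culture, with a median difference of -0.79. In Wnt1 culture 1 rose and 1 fell, with a median of 0.31. Fendrr, a long noncoding RNA transcribed next to Foxf1, was the one that fell. Its probe set 1430012_at read 1547 and 903 in tip, 1463 and 1724 in stalk, 373 and 594 in control culture, and 419 and 280 in Wnt1 culture. No cultured array reached any uncultured one. Its difference from stalk was -1.66 ± 0.40 in control culture (adjusted p = 0.0195, limma) and -2.07 ± 0.40 in Wnt1 culture (adjusted p = 0.0131). Foxq1, a forkhead gene in the cluster that holds Foxf2, was the one that rose, from 83.4 and 46.3 in stalk to 395 and 322 in control culture and 819 and 343 in Wnt1 culture. All 4 uncultured arrays lay below 96.59, the cutoff of the filter on low values, so Foxq1 passed that filter only through the cultured arrays, where it had to be higher.

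**Figure D2:**
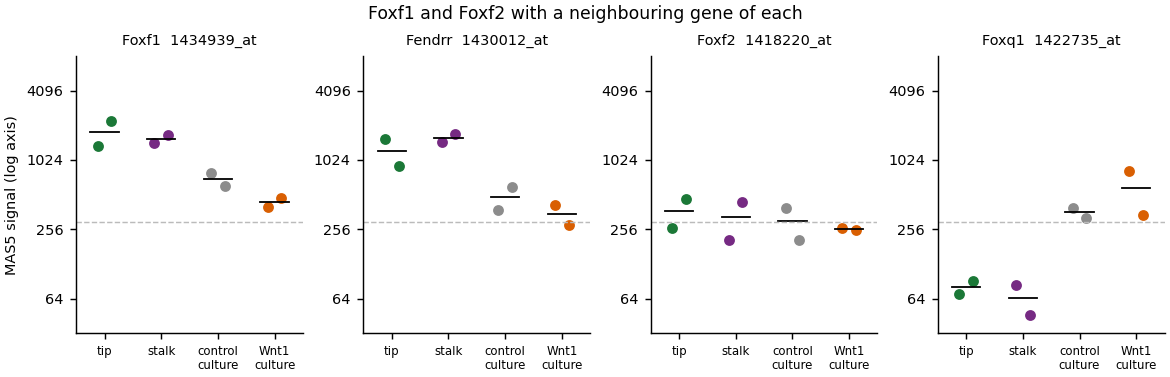
Signal of Foxf1 1434939_at, Fendrr 1430012_at, Foxf2 1418220_at and Foxq1 1422735_at on each array, in arbitrary units on a log axis, by group, with dots for arrays and black lines for group means (n = 2), and a dashed line at the highest array median, 299. Fendrr lies lower on all 4 cultured arrays than on the 4 uncultured ones, as Foxf1 does, Foxq1 lies higher in culture, and the Foxf2 values overlap.

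Foxp1 is transcribed from several starts. The sequence before each of 3 is shown because all 3 Foxp1 promoters in RefSeq's promoter table (assembly GRCm38.p6) hold the core letters that forkhead factors are known to bind. The letters searched were TGTTTA, read as TAAACA where they lie on the other strand, in the 250 bases before the start. The capitals mark each match, and the windows lie on the minus strand of chromosome 6.
Foxp1 chr6:99521049-99521114: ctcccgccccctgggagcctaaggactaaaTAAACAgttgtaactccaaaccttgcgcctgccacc
Foxp1 chr6:99266516-99266622: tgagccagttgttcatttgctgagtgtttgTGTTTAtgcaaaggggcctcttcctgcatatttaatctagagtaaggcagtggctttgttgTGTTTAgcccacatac
Foxp1 chr6:99028318-99028383: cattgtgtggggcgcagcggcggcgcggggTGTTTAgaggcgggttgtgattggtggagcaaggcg

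The first window has its match 91 bases before the start, the next has matches at 77 and 16 bases, and the last has one at 55 bases. The same letters occur in 12.0% of the 32851 promoters in the table. The single promoters listed for Foxf2, Foxd1 and Foxp4 hold no match in the same 250 bases. A match describes the letters and not a bound site, and the arrays do not tell which start was used.

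Among the 8 Foxp1 probe sets, 1455242_at fell in control culture. It read 2171 and 1815 in tip, 1965 and 1770 in stalk, 906 and 777 in control culture, and 926 and 1154 in Wnt1 culture. All 4 cultured arrays lay below all 4 uncultured ones. Its difference from stalk was -1.11 ± 0.33 in control culture (adjusted p = 0.0336, limma) and -0.82 ± 0.33 in Wnt1 culture (adjusted p = 0.103). The control culture call was lost without tip replicate 1 (0.0715), tip replicate 2 (0.0713), stalk replicate 1 (0.189), stalk replicate 2 (0.194), control culture replicate 1 (0.0806) or control culture replicate 2 (0.0521).

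The other Foxp1 probe sets gave a mixed picture. Probe set 1435222_at, the brightest of the 8, read 3834 and 2900 in tip, 4323 and 3229 in stalk, 1552 and 4296 in control culture, and 2371 and 3081 in Wnt1 culture. Its lowest array was control culture replicate 1, whereas control culture replicate 2 lay between the 2 stalk arrays, and the difference from stalk was -0.52 ± 0.44. Probe set 1421140_a_at read 1460 and 994 in stalk and 838 and 819 in control culture, with a difference of -0.52 ± 0.35. For 1435221_at the difference was 0.05 ± 0.35, and for 1421142_s_at it was 0.47 ± 0.51. None of these passed the threshold, and over the 8 arrays the other probe sets correlated with 1435222_at at -0.647 to 0.522. The 3 dim Foxp1 probe sets had signals between 9.68 and 493.

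Foxp2 had 3 bright probe sets, and in each of them the stalk mean was the highest and the tip mean came next. Probe set 1438231_at read 1615 and 1516 in tip, 2227 and 2018 in stalk, 1452 and 1432 in control culture, and 1603 and 1140 in Wnt1 culture. Probe set 1438232_at read 1005 and 1084 in tip, 1500 and 1567 in stalk, 557 and 605 in control culture, and 963 and 498 in Wnt1 culture. Probe set 1440108_at read 881 and 810 in tip, 1157 and 1478 in stalk, 337 and 822 in control culture, and 343 and 637 in Wnt1 culture. In each of the 3, both stalk arrays lay above all 6 other arrays. The share of all probe sets with that order was not counted, so the order is given as a description only.

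Of these, Foxp2 1438232_at fell in control culture, by 1.34 ± 0.37 against stalk, with an adjusted p of 0.0293 (limma). In Wnt1 culture its difference from stalk was -1.09 ± 0.37 (adjusted p = 0.0713). Probe set 1440108_at differed from stalk by -1.24 ± 0.45 in control culture (adjusted p = 0.0638) and by -1.39 ± 0.45 in Wnt1 culture (adjusted p = 0.0604), and 1438231_at by -0.54 ± 0.32 and -0.63 ± 0.32. The 1438232_at call was lost without tip replicate 1 (0.0597), tip replicate 2 (0.0601), stalk replicate 1 (0.146), stalk replicate 2 (0.201) or control culture replicate 1 (0.101). Of the 3 dim Foxp2 probe sets, 1441365_at, with signals of 23.4 to 461, was at 1.56 ± 0.68 in control culture and 2.03 ± 0.68 in Wnt1 culture (adjusted p = 0.108 and 0.0682). Probe set 1458191_at was at 1.27 ± 0.56 and 1.13 ± 0.56, and 1422014_at at -0.46 ± 0.70 and -0.22 ± 0.70.

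No difference of Foxp4 or Foxd1 passed the threshold. Foxp4 1431437_at read 194 and 116 in tip, 153 and 127 in stalk, 139 and 371 in control culture, and 432 and 179 in Wnt1 culture. Foxp4 1429719_at read 100.1 and 96.7 in tip, 177 and 178 in stalk, 239.6 and 312 in control culture, and 297 and 226 in Wnt1 culture. Foxd1 1418876_at read 306 and 231 in tip, 289.9 and 199.8 in stalk, 476 and 172 in control culture, and 563 and 245 in Wnt1 culture. In both cultured groups replicate 1 of Foxd1 was the higher, and its differences from stalk were 0.23 ± 0.55 in control medium and 0.55 ± 0.55 with Wnt1. The last Foxp4 probe set, 1431088_at, had signals of 7.01 to 141.

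Across all members, 3 of 21 probe sets fell in control culture against stalk, where 7.38% of the 29333 probe sets tested fell, and 0 rose by limma, where 13.1% rose. Of the bright ones, 3 of 11 fell and 0 rose, where 14.8% of the 13553 bright probe sets fell and 8.82% rose. In Wnt1 culture 1 of 21 fell, where 4.97% of all tested fell and 9.94% of the bright, and 0 rose by limma, where 5.47% of all and 5.64% of the bright rose. With quantile normalization between arrays none of the 4 calls stood, at limma adjusted p-values of 0.226 for Foxf1 1434939_at, 0.158 for Foxp1 1455242_at and 0.0802 for Foxp2 1438232_at in control culture and 0.0709 for Foxf1 in Wnt1 culture. Averaged over its probe sets, Foxp1 was at 0.090 in control culture, against -1.11 for 1455242_at alone. That average includes 1443258_at, at 1.16, which passed the filter on low values only through cultured arrays, so its sign is not read. At an unadjusted p under 0.05 there were 6 of 21 member probe sets in each culture comparison, where 39.5% of all probe sets tested had one in control culture and 33.2% in Wnt1 culture. Groups did not overlap in 12 of 21 in control culture, where 69.2% of all did not, and in 14 of 21 in Wnt1 culture, where 63.7% did not.

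**Figure D3:**
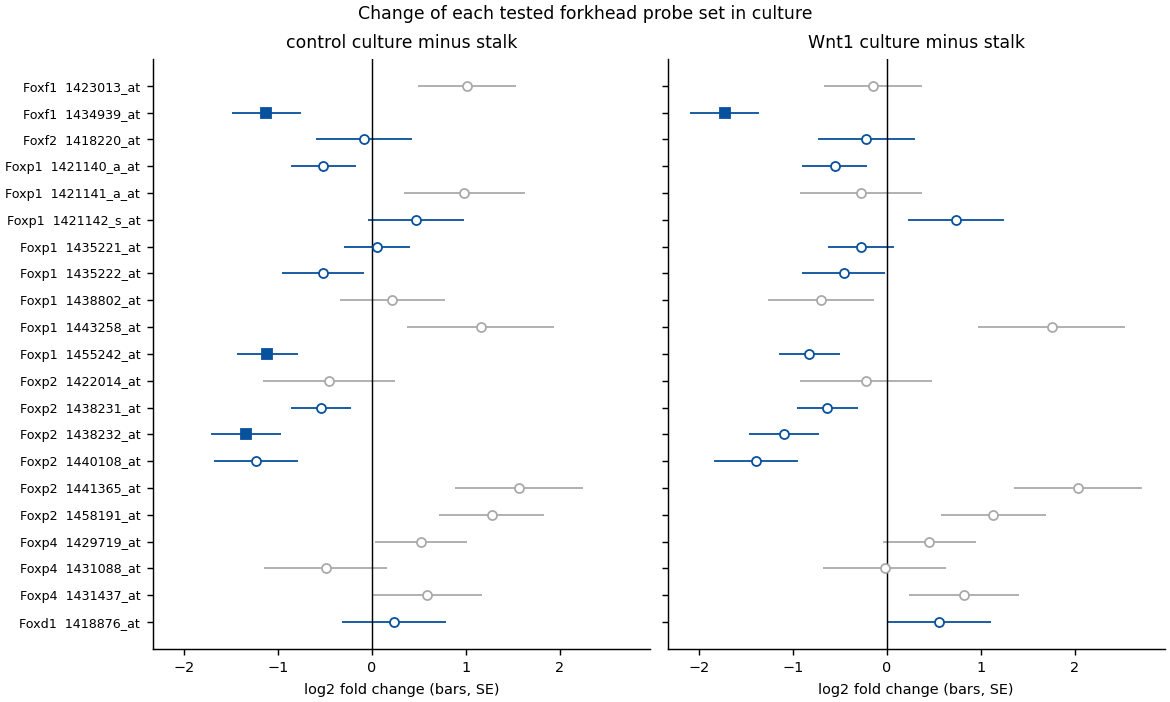
Difference from stalk in log2(signal + 44.5) for the 21 tested member probe sets, in control culture (left) and Wnt1 culture (right), with bars for the SE of the limma fit (2 arrays a group); blue marks bright probe sets, grey dim ones, and filled squares those past an adjusted p of 0.05. Foxf1 1434939_at is past the threshold in both panels, at -1.13 and -1.72, and the called probe sets all lie left of 0.

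Among the 11 bright member probe sets 8 lay below 0 in control culture, with a median of -0.52, where the bright probe sets of the whole array had a median of -0.24 and 59.3% below 0. The 10 dim ones ranged from -0.49 to 1.56. Of these, Foxp1 1443258_at (9.68 to 41.8 on the uncultured arrays) and Foxp2 1441365_at (23.4 to 84.7) passed the filter only through cultured arrays and so had to be higher there, and no pattern is read from the dim values.

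**Figure D4:**
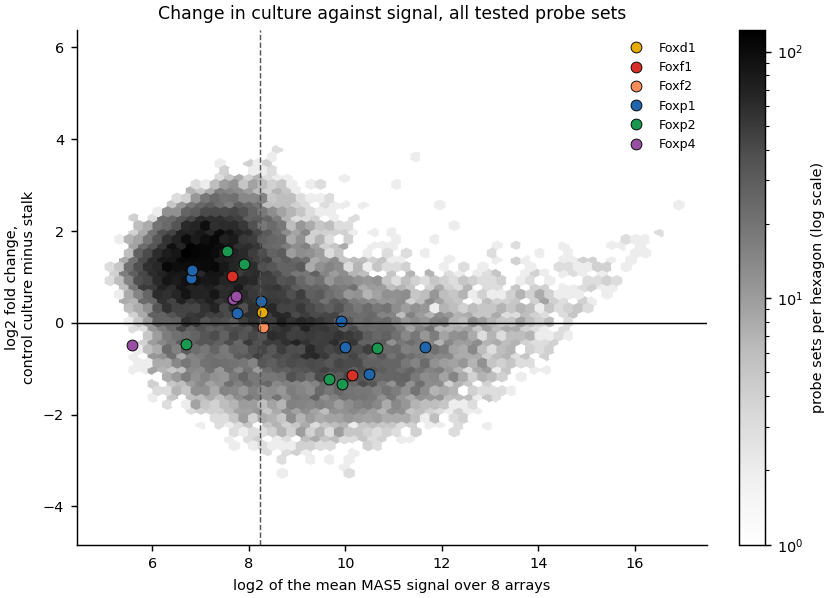
Log2 of the mean signal over the 8 arrays (x axis) against the control culture minus stalk difference in log2(signal + 44.5) (y axis) for 29333 probe sets, shaded by their number per hexagon, with the 21 member probe sets coloured by gene and a dashed line at the highest array median, 299. Right of the line, 8 of the 11 bright member probe sets lie below 0.

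Between tip and stalk no member was called. By limma 0 of 21 passed the threshold, 0 had an unadjusted p under 0.05, and among all 29333 probe sets 0 (0.0%) passed and 141 had an unadjusted p under 0.05. Foxf1 1434939_at differed by 0.16 ± 0.37, Foxf2 1418220_at by 0.18 ± 0.51, Foxp1 1435222_at by -0.16 ± 0.44 and Foxd1 1418876_at by 0.12 ± 0.55. Each probe set's spread was estimated from all 8 arrays, so the less alike cultured replicates entered these SEs and p-values. They do not measure the spread of tip and stalk alone. With only the 4 uncultured arrays in the limma fit, 1440 of all probe sets had an unadjusted p under 0.05 and 0 passed. The groups did not overlap in 8 of 21 probe sets, 2 higher and 6 lower in tip. That is near the 33.9% of all probe sets that did not overlap, so no pattern is read from it.

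Foxp2 accounted for 4 of the 6 that were lower in tip without overlap, its 3 bright probe sets and the dim 1422014_at (-0.56 ± 0.70), and Foxp4 1429719_at (-0.64 ± 0.49) and 1431088_at (-1.07 ± 0.66) made up the rest. The bright Foxp2 differences were -0.43 ± 0.32 for 1438231_at, -0.54 ± 0.37 for 1438232_at and -0.60 ± 0.45 for 1440108_at, each with an adjusted p of 1.0 (limma). With only the 4 uncultured arrays in the fit, their unadjusted p-values were 0.0503, 0.0234 and 0.0215, and all 3 adjusted values were 0.944. These probe sets report on 1 gene and are not replicates. Endothelial markers summed to 8735 to 12202 in tip and 14083 to 16818 in stalk, and 2 of the 14 were not above the array median in tip. Smooth muscle markers summed to 1375 to 4276 in tip and 5000 to 6284 in stalk, mesothelial ones to 4635 to 7657 and 3388 to 3669, and epithelial ones to 1946 to 2949 and 1746 to 2088. Of the 13 epithelial markers, 9 in tip and 7 in stalk were not above the array median. No marker of these lists passed the threshold between tip and stalk, and their part in the Foxp2 values was not tested.

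Wnt1 medium was compared with control medium to ask how stalk responds to the ligand. By limma 0 of 21 member probe sets passed, 1 had an unadjusted p under 0.05, and among all 29333 probe sets 0 (0.0%) passed and 2431 had an unadjusted p under 0.05. That one was the dim Foxf1 1423013_at, at -1.15 ± 0.52 (unadjusted p = 0.0453). Foxf1 1434939_at was at -0.60 ± 0.37 (adjusted p = 0.71), with both Wnt1 arrays lower. Foxp1 1455242_at was at 0.29 ± 0.33, with both Wnt1 arrays higher. The groups did not overlap in 6 of 21 probe sets, 1 higher and 5 lower with Wnt1, where 26.4% of all did not.

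The pathway that controls Foxf1 and Foxf2 was read from a list of 12 hedgehog genes, of which 11 were tested with the brightest probe set of each. In control culture 0 rose and 4 fell, with a median of -1.11, where 15.0% of genes rose and 8.39% fell and the median of all genes was 0.44. In Wnt1 culture 0 rose and 4 fell, with a median of -0.68, where 6.9% rose and 5.8% fell and the median was 0.35. All of the tested genes but Shh and Hhip were bright. Of all bright probe sets, 8.82% rose and 14.8% fell in control culture, and 5.64% rose and 9.94% fell in Wnt1 culture. The median of bright probe sets was -0.24 in both. Ptch1, the hedgehog receptor and itself a target of the pathway, fell by 3.67 ± 0.41 in control culture (adjusted p = 0.00159, limma) and lay at -3.55 in Wnt1 culture. These values are from 1428853_at, while the dim Ptch1 probe set 1439663_at was at 0.24 and -0.63. Over the alternatives, averaging of probe sets included, the Ptch1 difference in control culture ranged from -5.14 to -1.71. Gli1, a transcription factor switched on by the pathway, fell by 2.11 ± 0.56 in control culture, and so did Smo, the signal transducer, by 1.54 and Gli3, a factor that mostly represses targets, by 1.42. In Wnt1 culture the other 3 that fell were Gli2 at -2.54, Gli3 at -1.84 and Smo at -1.29. Between tip and stalk and between the media 0 of the 11 were called, with medians of -0.16 and 0.12.

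A further list held 13 lung mesenchyme genes tied to Foxf1 in earlier work. In control culture 2 rose and 5 fell, with a median of -0.85, where 15.0% of all genes rose and 8.39% fell. In Wnt1 culture 1 rose and 5 fell, with a median of -0.81, where 6.9% of all genes rose and 5.8% fell. Of bright probe sets, 14.8% fell in control culture and 9.94% in Wnt1 culture. Tbx4, a T-box factor of the lung field, fell by 2.19 ± 0.33 in control culture (adjusted p = 0.00479, limma). Wnt2, a Wnt ligand made by lung mesenchyme, fell by 2.60 ± 0.52, and Tbx5 fell by 1.89 ± 0.39. Wnt5a, a ligand that acts mostly without beta-catenin, rose by 1.93 ± 0.45 (adjusted p = 0.0174). Several of these genes also stand in the lung mesenchyme marker list. The medians between tip and stalk and between media were -0.08 and -0.27, with 0 called.

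Of 11 genes listed as partners of the Foxp factors in repression, 9 were tested. All 9 were bright. Of all genes 8.39% fell in control culture and 5.8% in Wnt1 culture, and of bright probe sets 14.8% and 9.94%. Among the partners, 0 rose and 3 fell in control culture, with a median of -1.19, and in Wnt1 culture 0 were called, with a median of -0.70. Those that fell were Hdac2, a histone deacetylase (-1.62 ± 0.39, adjusted p = 0.0189, limma), Mta2, a NuRD subunit (-1.57 ± 0.38, adjusted p = 0.0201), and Ctbp2, a corepressor (-1.19 ± 0.32, adjusted p = 0.0261). Between tip and stalk and between media 0 were called, with medians of -0.05 and 0.40.

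Among 38 other forkhead genes, 31 were on the array and 25 were tested. In control culture 3 rose and 2 fell, with a median of 0.63, where 15.0% of all genes rose and 8.39% fell. In Wnt1 culture 2 rose and 2 fell, with a median of 0.15, where 6.9% of all genes rose and 5.8% fell. Foxa2, Foxa3, Foxb2, Foxd3, Foxj1, Foxn1, Foxn4, Foxp3 and Foxq1 passed the filter on low values only through cultured arrays. Those genes had to be higher there, so neither median is read as a rise. Foxd2 rose by 2.60 ± 0.54 (adjusted p = 0.012, limma). Foxq1, also counted among the 3 that rose, was at 1.90 ± 0.55. It passed the filter on low values only through cultured arrays and so had to be higher there. Over the alternatives its difference ranged from 0.23 to 2.34. Foxj3 fell by 1.58 ± 0.37 at its brightest probe set (adjusted p = 0.0171), but its other 2 were at -0.70 and 2.09, and their average with it was at -0.064 (adjusted p = 0.902). The probe set at 2.09 also passed the filter only through cultured arrays and had to be higher there. Neither it nor the average that includes it is therefore set against the fall. Foxk1 fell by 2.46 ± 0.50 at its brightest probe set (adjusted p = 0.0114), with means of 759 ± 143 in stalk and 101 ± 4.28 in control culture, but its other 2 probe sets were at 1.08 and 1.11. Of those, the Foxk1 probe set at 1.08 passed the filter only through cultured arrays and had to be higher there, so no rise is read from it. Between tip and stalk and between media 0 were called, with medians of 0.08 and -0.36.

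The genes most like each member were taken from the 13263 bright probe sets that were left without predicted and clone-named genes, by Pearson's r of log2 values over the 8 arrays, which share their split into cultured and uncultured tissue. For Foxf1 1434939_at they were Gna13 (0.99), Ppat (0.98) and Zbtb33 (0.98). Foxf2 was nearest to Ube2n (0.95), Rnf2 (0.92) and Cyhr1 (0.90). Foxp1 1435222_at was nearest to Gria3 (0.97), Slfn9 (0.96) and Rabep1 (0.96). Foxp2 1438231_at followed Smc3 (0.97), Zfhx3 (0.96) and Clcn4 (0.95), and its own probe set 1438232_at had an r of 0.905 with it and 1440108_at 0.553. Foxp4 was nearest to Samhd1 (0.97), Rrbp1 (0.96) and Arhgef10 (0.94), and Foxd1 to N6amt1 (0.98), Cdv3 (0.97) and Lgals8 (0.95). These values were picked as the highest of many over 8 arrays and describe these arrays only.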

How the data were processed

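Each deposited value is the intensity of a probe set on an array, not on a log scale. Per the submitters' processing notes, the authors made it with MAS5 and Affymetrix Expression Console, and the RNA had been amplified in a 2-cycle cDNA synthesis, per the labels. Which versions and settings were used is not given in the sources used here, nor is the genome build. The 2% trimmed mean was 500 on every array, as scaling to a common target would give.

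Of 45101 probe sets, 64 are controls, 34945 carry 1 platform symbol, 932 several and 9160 none. A probe set with 1 symbol was tested if it exceeded 96.59 (the 40th percentile) on 2 or more arrays, which left 29333. Values were tested as log2(value + 44.47), the 25th percentile being the pseudocount, so fold changes of dim genes are understated. One limma 3.58.1 model in R 4.3.3 (lmFit, then eBayes with an intensity trend, no covariates) held all 8 arrays and gave 4 comparisons, two-sided, with Benjamini-Hochberg adjustment over all probe sets and a threshold of 0.05. The procedure was tested on simulated data. An exact permutation test of 2 arrays against 2 could not reach the threshold, and none was run. Arrays have no depth, and 2 a group limit the precision. Plots used matplotlib 3.10.9 and Python 3.11.15.

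The members and lists were chosen with earlier results of these data known. Genes were named by rule: all member probe sets, up to 4 genes past the threshold by p from each list, and the 3 most alike by r. Each list gene is represented by its brightest probe set. The marker lists were lung mesenchyme, smooth muscle, endothelium, epithelium, mesothelium, pericytes, neural crest and neurons, and blood and macrophages. Of 6, 6 and 8 markers tested, the last 3 had 0, 1 and 4 higher and 0, 0 and 1 lower in control culture. Mesothelium had 2 of 8 higher and epithelium 4 of 12, where 15.0% of all genes rose and 8.39% fell. Spint1, Cdh1, Sox2, Foxa2, Muc16 and Msln in these 2 lists passed the filter on low values only through cultured arrays, so no rise is read from them. The same holds for Tubb3 in the neural list and for Abcc9 and Higd1b in the pericyte list. All 6 members matched a RefSeq gene of assembly GRCm38.p6 by identifier, and 4 of the 6 a promoter. Alternatives changed the pseudocount, filter, signal floor, normalization, variance model, array weights, probe set rule, arrays, replicate block and threshold. A fit without both culture arrays numbered 1 was chosen after seeing the data.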

Additional observations from a re-analysis of the deposited data

How the results depend on the processing

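The 29 differences of named probe sets that passed the threshold and were refitted kept their sign in the 21 to 23 alternatives run for each, 1 of them added after seeing the data, and passed the threshold in 11 to 23 of these. Averaging was not run for Foxp1 1455242_at and Foxp2 1438232_at, whose genes are averaged under their brightest probe sets, and the Foxp1 average in control culture had the opposite sign. That average includes Foxp1 1443258_at, which passed the filter on low values only through cultured arrays, so its sign is not read. Calls depended on the scaling and on single arrays. Among members, 3 fell in control culture, but 1 with the signal floor, 7 with median scaling, 0 with quantile normalization, 0 without the variance trend, 1 with the brightest probe set per gene, 0 after averaging probe sets by gene and 0 to 4 with an array left out. There 0 rose, but 1 with the replicate block and 0 to 1 with an array left out. In Wnt1 culture 1 fell, but 0 with the floor, quantile normalization or averaging, 7 with median scaling, 2 with the block, 4 without both culture arrays numbered 1 and 0 to 3 with an array left out. There 0 rose, but 1 with the block, 1 without both culture arrays numbered 1 and 0 to 2 with an array left out. Over all probe sets 3845 rose and 2165 fell in control culture, but 841 and 9015 with median scaling, 689 and 1232 with quantile normalization, 304 and 511 with the floor, 7471 and 3732 without both culture arrays numbered 1, and 5578 and 2885 with the block, and 39 to 6792 and 25 to 3210 with an array left out. In Wnt1 culture 1605 rose and 1457 fell, but 670 and 6891 with median scaling, 291 and 459 with quantile normalization, 39 and 149 with the floor, 1139 and 578 without the variance trend, 1055 and 1190 without the filter, 4176 and 3588 without both culture arrays numbered 1, 3290 and 2318 with the block, and 42 to 5903 and 32 to 2743 with an array left out. Between media 0 were called, but 13 and 68 with the floor, 68 and 1 without control culture replicate 2 and 426 and 506 without both culture arrays numbered 1. The median over all probe sets in control culture, 0.49 as deposited, was -0.82 with median scaling and -0.13 with quantile normalization.

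The labels do not say that replicate numbers mark a shared litter or day. Same-numbered arrays deviated together with r of -0.05 (tip and stalk), 0.27 (the media), 0.16 (control culture and stalk) and 0.15 (Wnt1 culture and stalk), so the replicate block, whose counts stand above, is no shown pairing of the samples.

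The differences that changed sign were all short of the threshold as reported, and the cause was not tested. Median scaling gave, for Wnt1 minus control culture, 0.091 for Foxf2 1418220_at, 0.20 for Foxp1 1421140_a_at, and 0.15 and 0.073 for Foxp2 1438231_at and 1440108_at. It gave, for Wnt1 culture minus stalk, -0.38 for Foxp1 1421142_s_at, -0.60 for Foxd1 and -0.26 for Foxp4 1431437_at. For control culture minus stalk it gave -0.83 and -1.43 for Foxp1 1421142_s_at and 1435221_at, -1.11 for Foxd1, -0.28 for Foxf1 1423013_at and -0.63 for Foxp4. For tip minus stalk it gave -0.10 and -0.028 for Foxp1 1421140_a_at and 1455242_at and -0.013 for Foxp4. Quantile normalization gave 0.065 for Foxf2 and 0.0049 for Foxp1 1421140_a_at between media, and -0.27 for Foxp1 1421142_s_at, -0.49 for Foxd1 and -0.36 for Foxp4 in control culture. Averaging probe sets gave -0.16 for Foxp1 and 0.094 for Foxp2 between media, 0.090 for Foxp1 in control culture, and 0.035 for Foxp1 and -0.54 for Foxp4 between tip and stalk. The floor gave -0.0057 for Foxp1 1421142_s_at between media. Without both culture arrays numbered 1 the values between media were 0.24 for Foxf2, -0.093 and -0.47 for Foxp1 1421142_s_at and 1435222_at, -0.26 for Foxp2 1438232_at and -0.89 for Foxp4. The same fit gave 0.034 for Foxp1 1435221_at and 0.020 for Foxf1 1423013_at in Wnt1 culture, and 0.20 for Foxp1 1435222_at and -0.40 for Foxd1 in control culture.

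With single arrays left out, ranges between tip and stalk were -0.21 to 0.52 for Foxf1 1434939_at, -0.31 to 0.66 for Foxf2, -0.26 to 0.28, -0.37 to 0.046 and -0.038 to 0.21 for Foxp1 1421140_a_at, 1435222_at and 1455242_at, -0.11 to 0.35 for Foxd1 and -0.20 to 0.37 for Foxp4. Between media they were -0.54 to 0.26 for Foxf2, -0.33 to 0.86 and -0.66 to 0.78 for Foxp1 1421142_s_at and 1435222_at, -0.33 to 0.15, -0.21 to 0.69 and -0.75 to 0.43 for Foxp2 1438231_at, 1438232_at and 1440108_at, -0.31 to 0.95 for Foxd1 and -0.35 to 0.83 for Foxp4. In control culture they were -0.57 to 0.40 for Foxf2, -0.13 to 1.07, -0.065 to 0.16 and -1.24 to 0.20 for Foxp1 1421142_s_at, 1435221_at and 1435222_at, -0.40 to 0.87 for Foxd1 and -0.0059 to 1.17 for Foxp4. In Wnt1 culture they were -0.70 to 0.26 for Foxf2, -0.58 to 0.034 for Foxp1 1435221_at and -0.36 to 0.075 for Foxf1 1423013_at.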
